A study of Saccharomyces cerevisiae with 6 samples.

Results

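The genes SSU1 and FZF1 were followed in 6 wine-yeast cultures. They were chosen by name, as the probes whose gene symbol in the platform annotation is SSU1 or FZF1. Each gene had a single probe, which makes 2 genes of the 6248 genes and unnamed probes tested (2 of 6271 probes). SSU1 (YPL092W) lies on chromosome XVI and FZF1 (YGL254W) on chromosome VII of the laboratory reference strain S288c. 59A is a haploid MATa derivative of the industrial wine strain EC1118, and 3 cultures of the wild type were compared with 3 of 59A PDR8-S288c, in which the gene of the drug resistance regulator Pdr8p was exchanged for the S288c allele. By the methods, the exchange passed through a deletion of PDR8 and left a kanMX4 resistance cassette between loxP sites in the terminator of PDR8. No number of independent transformants is given, so the effects of the allele, of the cassette and of the clone cannot be told apart. All cultures fermented the synthetic must SM425, which held 425 mg/l of assimilable nitrogen at pH 3.3 with added p-aminobenzoic acid and iron(III) chloride, and were sampled in stationary phase at 66 g/l of CO2 released (70% of fermentation progress). The comparison asked which genes respond to the PDR8 allele, and here whether the sulfite pump and its regulator are among them.

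Sulfite is an intermediate of sulfate assimilation and is also the preservative that winemakers add to must. Ssu1p is a pump of the plasma membrane that exports sulfite, and Fzf1p is a zinc-finger transcription factor that activates SSU1. In many wine yeasts, 59A included, a translocation between chromosomes VIII and XVI has put the SSU1 coding sequence behind the promoter of ECM34, a gene of chromosome VIII, and this rearrangement is known for high SSU1 expression and sulfite resistance. Both strains compared here are 59A and share it, and no strain without it is among the 6 cultures.

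Expression was measured as the log2 of the spot-median intensity, quantile-normalized by the authors, on a scale where 5.3 is the background and 16 the saturation of a spot. Medians were between 8.06 and 8.07 on all 6 arrays, which lay on slide 1. The array of wild type replicate 3 has no value for 2066 probes, 32.9% of all, and SSU1 is among them. The number of arrays limits the precision. The intensities are relative to the total RNA labeled, so fewer transcripts per cell and a change in the rest of the RNA cannot be told apart. The labeled mating type was checked on its markers. The 6 a-specific genes ranged from 6.70 to 11.46 log2 units over the cultures in which they were measured, and the alpha-factor genes MF(ALPHA)1 and MF(ALPHA)2 stayed at 5.75 or below. STE3 did not exceed 6.00, while SAG1, the alpha-agglutinin gene, was at 7.08 to 7.33.

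The strains differed in QDR2, YLR179C and PDR8, which the study reports as changed in this same comparison, so they are not an independent check. QDR2, a multidrug transporter gene, rose by 2.22 log2 units in 59A PDR8-S288c (adjusted p = 1.41e-05 from limma). YLR179C, of unknown function, rose by 0.90 (adjusted p = 0.00211 from limma). The signal of PDR8 was 7.21 and 7.26 in the wild type (replicates 1 and 2, replicate 3 not measured) and 6.70 to 6.77 in 59A PDR8-S288c, on a probe whose match to each allele was not examined. The difference was -0.49 log2 units (SE 0.05, adjusted p = 0.026 from limma). The study lists PDR8 as lower at an adjusted p under 0.01, a level that was not reached here. PDR8 did not pass an adjusted p under 0.05 in 7 of 15 alternative runs, some of which share an estimate.

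SSU1 gave a signal far above background that was nearly even over the cultures. Its level was 10.71 and 10.69 log2 units in wild type replicates 1 and 2, with no value for replicate 3. In 59A PDR8-S288c it was 10.66, 10.71 and 10.64 in replicates 1, 2 and 3. The strains overlapped, and every measured culture was more than 40-fold over background, between 40.5-fold and 42.6-fold. The highest and the lowest culture were 0.07 log2 units apart, which is 1.05-fold.

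Wild type cultures had a mean SSU1 level of 10.70 ± 0.02 (SD, n = 2), and those of 59A PDR8-S288c one of 10.67 ± 0.04 (SD, n = 3). The log2 fold change (LogFC), given throughout as 59A PDR8-S288c minus wild type, was -0.03 (SE 0.05, adjusted p = 0.801 from limma over all features). An exact permutation test of 2 cultures against 3 gave a two-sided p = 0.4, where the smallest possible is 0.1. The 95% confidence interval of the LogFC ran from -0.15 to 0.09, that is from 0.901-fold to 1.06-fold. The interval rests on 2 wild type values.

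The spread of SSU1 was small for this series. Its standard deviation within strains was 0.033 log2 units, and 10.2% of the 6248 features had a smaller one (median over all features 0.068). Of all features, 4.13% had a smaller range over their measured cultures than SSU1, although SSU1 was measured on 5 arrays and most features on 6.

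FZF1 gave a weak signal. Its level was 6.55, 6.50 and 6.46 log2 units in wild type replicates 1, 2 and 3. In 59A PDR8-S288c it was 6.61, 6.70 and 6.63 in replicates 1, 2 and 3. All 3 cultures with the S288c allele of PDR8 were above all 3 wild type cultures, with a gap of 0.06 log2 units between the nearest cultures of the strains. The signal was between 2.24-fold and 2.64-fold over background in the 6 cultures.

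**Figure D1:**
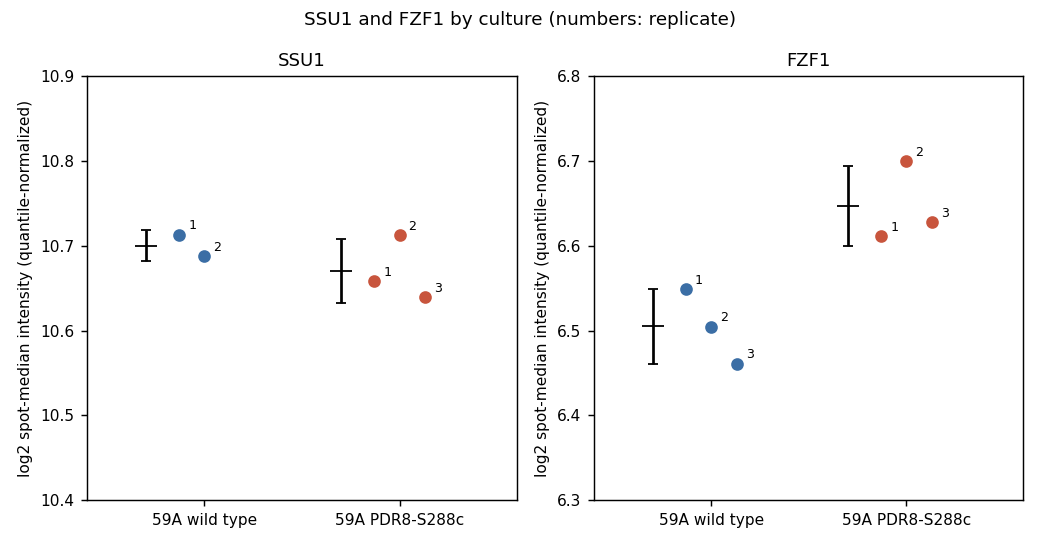
Level of SSU1 (left) and FZF1 (right) in each culture, as log2 quantile-normalized spot-median intensity on axes that start above background and span equal ranges. Points are cultures numbered by replicate, and bars beside them are the mean ± SD of the strain. SSU1 overlaps between the strains at 10.64 to 10.71 and lacks wild type replicate 3, while the wild type points of FZF1 lie at 6.46 to 6.55 and those of 59A PDR8-S288c at 6.61 to 6.70.

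The mean level of FZF1 was 6.50 ± 0.04 (SD, n = 3) in wild type cultures, against 6.65 ± 0.05 (SD, n = 3) with the S288c allele. The LogFC was 0.14 (SE 0.05, adjusted p = 0.174 from limma), or 1.10-fold with a 95% confidence interval from 1.02-fold to 1.19-fold. FZF1 therefore did not pass an adjusted p under 0.05, and neither did SSU1, while 96 of the 6248 features (1.54%) did. The unadjusted p of FZF1 was 0.0176 from limma, in a comparison in which 18.1% of all features had an unadjusted p under 0.05. An exact permutation test of 3 cultures against 3 gave a two-sided p = 0.1, the smallest possible. The lack of overlap is common in this comparison, since 13.5% of the features measured on all 6 arrays were higher in every culture of 59A PDR8-S288c than in every wild type culture. The strains were not spread evenly over the slide, with 59A PDR8-S288c on subarrays 5, 6 and 7 and the wild type on 8, 1 and 2 (replicates 1, 2 and 3). With subarrays 1 to 4 against 5 to 8 as a covariate the LogFC of FZF1 was 0.10 (adjusted p = 0.726 from limma) and that of SSU1 -0.04, and both then rest on the wild type culture of subarray 8.

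SSU1 and FZF1 were also compared within each array, where a scaling of the whole array cancels. In 59A SSU1 lies behind the promoter of ECM34, and whether Fzf1p still acts on it there was not tested. The log2 value of SSU1 minus that of FZF1 was 4.16 and 4.18 in wild type replicates 1 and 2 and 4.05, 4.01 and 4.01 in replicates 1, 2 and 3 of 59A PDR8-S288c. The values are levels of 2 different probes and are used for their change only. The difference was lower in all 3 cultures of 59A PDR8-S288c, by 0.15 log2 units on average. It is not independent of the LogFC values of SSU1 (-0.03) and FZF1 (0.14), and mostly repeats that of FZF1. Of the single features measured on 5 arrays, 35% did not overlap between the strains. The exact permutation test of 2 against 3 gave a two-sided p = 0.1, the smallest it allows, so that this design cannot pass 0.05. With 5 arrays that measured both genes, no correlation between FZF1 and SSU1 across cultures was computed.

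**Figure D2:**
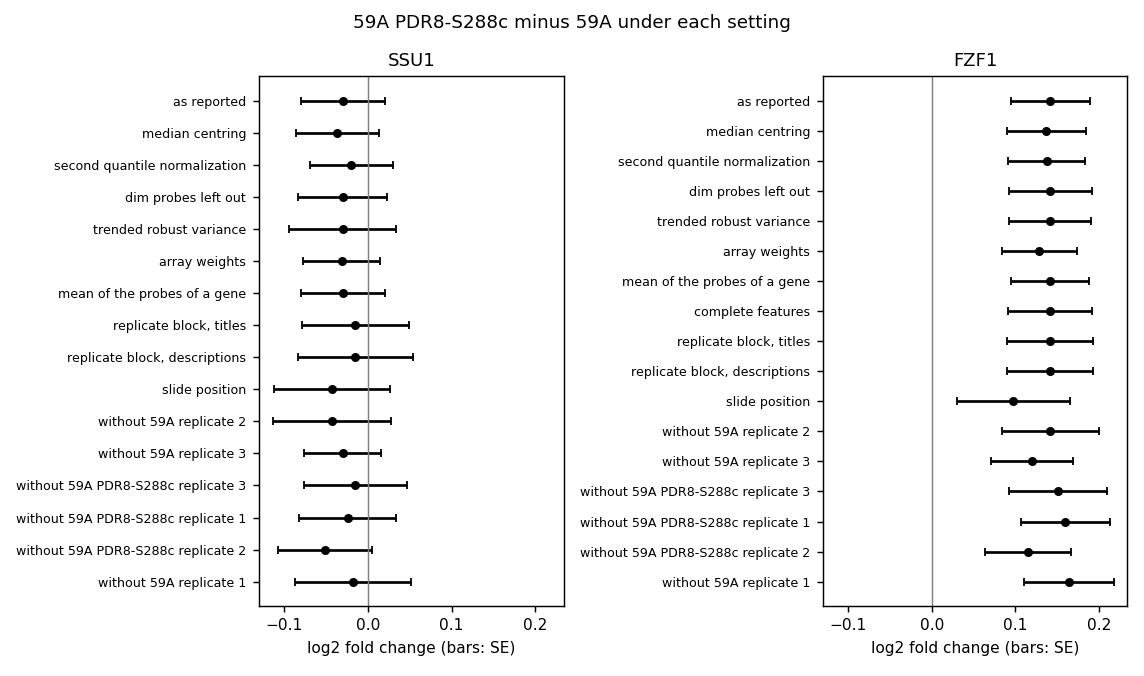
LogFC of SSU1 (left) and FZF1 (right) under each setting of the analysis, with the standard error as bars and the line at 0. SSU1 stays between -0.05 and -0.02 and FZF1 between 0.10 and 0.16 in every alternative run.

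None of the other known targets of Fzf1p passed the test. Fzf1p is also known to act on YHB1, a nitric oxide dioxygenase gene, on YNR064C, an epoxide hydrolase gene, and on the cyanamide hydratase genes DDI2 and DDI3. YHB1 was at 9.37, 9.22 and 9.69 log2 units in wild type replicates 1, 2 and 3 and at 9.32, 9.04 and 8.97 in those of 59A PDR8-S288c. The strains overlapped, and the LogFC was -0.32 (SE 0.13, adjusted p = 0.27 from limma). It was -0.18 without wild type replicate 3, the highest culture, and had an unadjusted p under 0.05 from limma in 8 of 16 alternatives. YNR064C, DDI2 and DDI3 had means within 1 log2 unit of background, with values from 5.35 to 5.90, so that a fall could hardly be read there. Their LogFC values were 0.12, 0.03 and 0.03 (SE 0.07, 0.05 and 0.05). DDI2 and DDI3 are near-identical, so their probes may read each other's transcript. Only SSU1 and YHB1 of the 5 listed targets were more than 1 log2 unit above background.

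The genes that form and consume sulfite did not pass the test either. Met16p reduces activated sulfate to sulfite, Met5p and Met10p are the subunits of the sulfite reductase, Met1p and Met8p make its siroheme cofactor, and Met17p fixes the sulfide into homocysteine. MET17 had the largest difference, with 9.45 and 9.92 log2 units in wild type replicates 1 and 2 (replicate 3 not measured) and 9.08, 9.19 and 9.35 in replicates 1, 2 and 3 of 59A PDR8-S288c. All 3 cultures with the S288c allele were below both wild type values, and the LogFC was -0.48 (SE 0.14, adjusted p = 0.154 from limma). The wild type values of MET17 differed by more from each other than the strains did at their nearest cultures, and the LogFC was -0.25 without wild type replicate 2 and -0.71 without replicate 1. Over the features measured on 5 arrays, 35% did not overlap between the strains. MET8 followed with a LogFC of -0.44 (SE 0.22, adjusted p = 0.341 from limma) and cultures that overlapped, and was at -0.66 without wild type replicate 2 and -0.28 without replicate 3. Of these 6 genes, 5 had a LogFC below 0, where 47% of all features did, with a median of -0.12.

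Upstream of sulfite, the sulfate permease genes SUL1 and SUL2, the ATP sulfurylase gene MET3, the APS kinase gene MET14 and the phosphatase gene MET22 gave LogFC values from -0.34 to 0.07. The lowest were MET3 at -0.34 (SE 0.16) and MET14 at -0.19 (SE 0.14). Both moved when 1 wild type culture was left out, to -0.15 and -0.06 without replicate 2 and -0.49 and -0.34 without replicate 3, respectively, and MET14 was at -0.12 without 59A PDR8-S288c replicate 1. SUL1 was within 1 log2 unit of background. For the 11 genes from sulfate uptake to sulfide fixation together, 0 were called by limma, where 1.54% of all features were. An unadjusted p under 0.05 from limma was found for 1 of them, where 18.1% of all features had one. Below 0 were 9, where 47% of all features were. The genes were measured on the same arrays, so their signs are not independent.

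Among regulators of the sulfur genes, MET4, which encodes the main activator, was at 8.35, 8.30 and 7.99 log2 units in wild type replicates 1, 2 and 3. In replicates 1, 2 and 3 of 59A PDR8-S288c it was at 8.44, 8.56 and 8.57, above every wild type culture, as were 13.5% of the features measured on all 6 arrays. The LogFC was 0.31 (SE 0.09, adjusted p = 0.151 from limma), and it was 0.20 without wild type replicate 3 and 0.17 with the position on the slide. MET32, a DNA-binding partner of Met4p, had a LogFC of -0.15 (SE 0.06, adjusted p = 0.235 from limma), or -0.06 with the position on the slide. The gap between the nearest cultures of the strains was -0.0065 log2 units, and 11.1% of the features measured on all 6 arrays were lower in 59A PDR8-S288c without overlap. GRR1, an F-box protein gene whose mutants are sensitive to sulfite, had a LogFC of 0.08 (SE 0.08, adjusted p = 0.641 from limma). COM2, a further regulator of sulfite tolerance, was not analysed here. Of the 22 pathway genes measured besides SSU1, 0 were called by limma, where 1.54% of all features were. At an unadjusted p under 0.05 there were 4, namely YHB1, MET17, MET32 and MET4, in a comparison in which 18.1% of all features reached this level, a share near theirs.

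**Figure D3:**
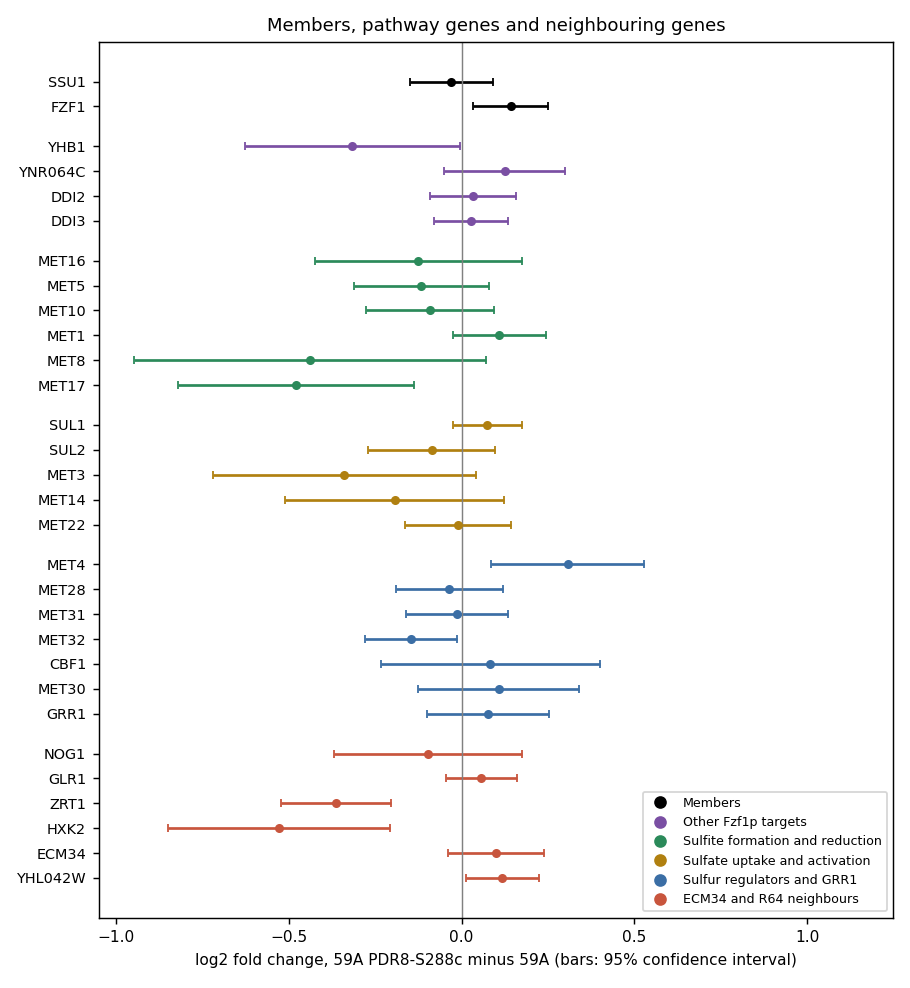
LogFC of SSU1 and FZF1, of the other Fzf1p targets, of the sulfur genes and of the genes next to SSU1, FZF1 and ECM34, with 95% confidence intervals as bars (limma) and the line at 0. SSU1 lies at -0.03 with an interval that spans 0, FZF1 at 0.14, and the neighbors of FZF1, ZRT1 and HXK2, at -0.36 and -0.53.

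The genes on both sides of FZF1 had larger LogFC values than FZF1 and of the other sign, without passing the test, and the difference from FZF1 was not tested. ZRT1, the high-affinity zinc transporter gene, was at 6.76, 6.60 and 6.86 log2 units in wild type replicates 1, 2 and 3 and at 6.35, 6.39 and 6.39 in those of 59A PDR8-S288c. Its LogFC was -0.36 (SE 0.07, adjusted p = 0.0517 from limma), and it passed 0.05 with median centring (-0.37), with dim probes left out, with array weights (-0.33), with a variance that was trended and robust, and over the features measured on all 6 arrays. It did not pass in the other 11 of 16 alternatives, both replicate blocks and every run without a single array among them. HXK2, the hexokinase gene that also takes part in glucose repression, was at 8.78, 9.32 and 9.00 in the wild type and at 8.59, 8.32 and 8.60 in 59A PDR8-S288c. Its LogFC was -0.53 (SE 0.14, adjusted p = 0.105 from limma). With the position on the slide it was -0.27 (adjusted p = 0.655 from limma), and that of ZRT1 -0.38 (adjusted p = 0.384 from limma). In both genes no culture of one strain overlapped with the other, and 11.1% of the features measured on all 6 arrays were lower in this way. All 3 genes carry the W ending of the forward strand in their systematic names.

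Next to SSU1 on the reference chromosome are NOG1, a ribosome assembly gene, and GLR1, the glutathione reductase gene. NOG1 had a LogFC of -0.10 (SE 0.12, adjusted p = 0.709 from limma; -0.22 without wild type replicate 2 and 0.033 without replicate 3) and GLR1 one of 0.06 (SE 0.04, adjusted p = 0.542 from limma). ECM34, whose promoter SSU1 has taken over by the translocation, was at 6.61, 6.58 and 6.41 log2 units in wild type replicates 1, 2 and 3 and at 6.66, 6.63 and 6.61 in those of 59A PDR8-S288c. Its LogFC was 0.10 (SE 0.06, adjusted p = 0.428 from limma), and it was 0.038 without wild type replicate 3 and 0.023 with the position on the slide. The signal of ECM34 was as weak as that of FZF1. Whether its probe reads a transcript of the promoter now before SSU1 was not examined. The neighbor of ECM34 that was measured, YHL042W, had a LogFC of 0.12 (SE 0.05, adjusted p = 0.232 from limma). DFP4, on the other side of ECM34, was not analysed here.

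The arm of chromosome XVI that the translocation moved was then examined as a whole. On the telomere side of SSU1, 167 of 187 genes of the reference order were measured, and their median LogFC was 0.02 (quartiles -0.06 and 0.08). On the other side of SSU1 it was 0.01 over 242 genes (quartiles -0.07 and 0.08). Called by limma were 2 of the 167 genes (1.2%, against 1.54% of all features), with RPL5, a ribosomal protein gene, lower and the RNA helicase gene DBP1 higher. In single cultures, the median deviation of the 167 genes from their own means was between -0.01 and 0.02 log2 units.

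**Figure D4:**
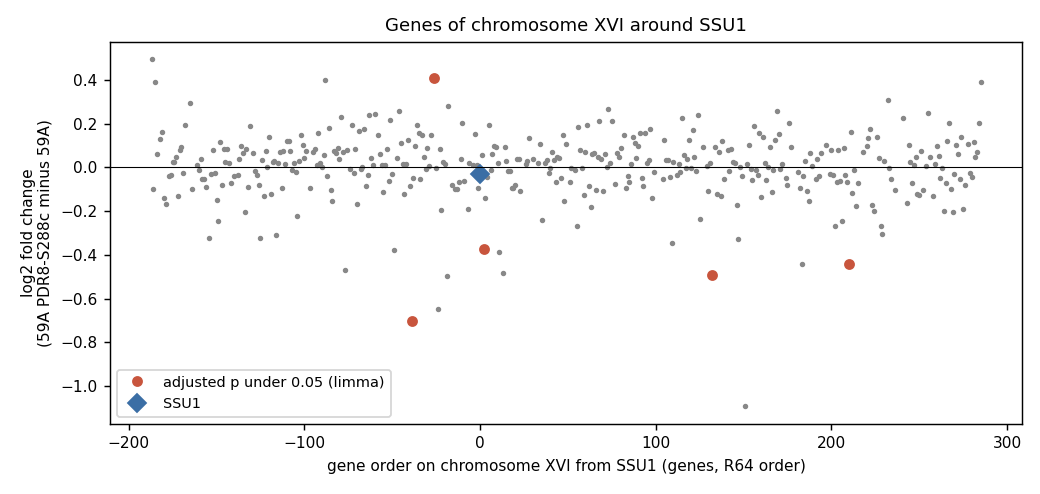
LogFC of each measured gene of chromosome XVI against its place in the reference gene order, counted in genes from SSU1, with the telomere of the moved arm on the left. Gray points are genes that did not pass, red points those at an adjusted p under 0.05, and the blue diamond is SSU1 at -0.03, in a band whose medians are 0.02 and 0.01 on its sides.

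The genes whose profile over the cultures was most like that of each member were sought among named genes measured on all 6 arrays with a mean more than 1 log2 unit above background. For FZF1, over 6 arrays, they were SEC2, a gene of vesicle transport (Pearson r = 0.990), YRF1-7 of the subtelomeric helicase family (0.989), POL3, a DNA polymerase subunit gene (0.989), the mitochondrial DNA polymerase gene MIP1 (0.978) and PPA1 (0.976). All 5 were higher in 59A PDR8-S288c, by 0.11 to 0.50 log2 units, and none passed the test. The points share arrays and the strain difference, and 95 of 3151 genes had an r over 0.9. For SSU1, over 5 arrays, they were ENT5 (0.984), UBX3 (0.980), AIM8 (0.973), IBA57 (0.972) and REV3 (0.971), with ranges of 0.11 to 0.24 log2 units. For SSU1, 50 of 3152 genes had an r over 0.9. The lists of FZF1 and SSU1 shared no gene, which carries little information for lists of 5 taken over different arrays.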

How the data were processed

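Cy3-labeled cRNA of the 6 cultures was hybridized on Agilent 8x15k single-color arrays. Per the methods, the authors scanned them with GenePix, applied quantile normalization to the spot medians (R 2.13.1 and limma in the submitters' processing notes) and deposited log2 values. The methods do not say whether these 6 arrays were normalized with the global data set. The deposited log2 values were used as given. Of 6271 probes, 5220 have 1 gene symbol, none several and 1051 none. Where a gene had several probes (22 genes), its brightest was kept. The test was that of limma 3.58.1 under R 4.3.3 (lmFit, eBayes, no block) and Benjamini-Hochberg adjustment over 6248 features, with the call at an adjusted p under 0.05. The fit was run on simulated data with independent noise for each feature. There 95% of the features changed by 0.5 log2 units were called, and 7.14% of the calls were false. Deviations shared by the features of an array were not simulated. Replicates were numbered by sample title; 2 descriptions of 59A PDR8-S288c give other numbers. Gene order came from the assembly GCF_000146045.2 (R64), used for names and neighbors only. The genes and lists were chosen with earlier results of these data known. Named were SSU1, FZF1, their neighbors, the check genes PDR8, QDR2 and YLR179C, the 2 most changed members of each list and the 5 genes most alike in profile. The arm of chromosome XVI was examined, and its called genes named, after the values were seen. Plots were drawn with matplotlib 3.10.9. As alternatives, arrays were median-centred, quantile-normalized again, weighted or left out singly, dim probes were dropped, probes of a gene were averaged, the variance was trended and robust, the features were limited to those measured on all 6 arrays, and the model held the replicate number as a block or the place on the slide (up to subarray 4, or above).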

Additional observations from a re-analysis of the deposited data

How the results depend on the processing

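SSU1 and FZF1 kept their direction and did not pass an adjusted p under 0.05 in any of the alternatives run (15 and 16). For SSU1, with no value on wild type replicate 3, the blocks and slide position repeat estimates of runs without single arrays. The LogFC of SSU1 was between -0.05 and -0.02 (adjusted p from limma 0.748 to 0.956) and that of FZF1 between 0.10 and 0.16 (adjusted p from limma 0.154 to 0.726). For FZF1, 14 of the 16 had an unadjusted p under 0.05 from limma. The exceptions were slide position as a covariate, where only wild type replicate 1 shares subarrays 5 to 8 with the other strain, and leaving out 59A PDR8-S288c replicate 2. The number of pathway genes past the threshold was 0 in every alternative. The change of SSU1 minus FZF1 within an array was between -0.16 and -0.14 without single arrays, and no block was fitted to it because wild type replicate 3 lacks SSU1. The number of features past the threshold was 96 as reported, 208 with array weights, 152 with a variance that was trended and robust, 6 with slide position, 3 at an adjusted p under 0.01 and 3 to 90 without single arrays. With the replicate number as a block it was 19 by titles and 3 by descriptions. Samples with the same title number did not deviate together in every pair (r = 0.17, 0.34 and -0.43 over 4190 features). Pairs with other title numbers ranged from -0.69 to 0.62. The deviations were taken from each strain's own mean over 3 cultures, so these r values cannot tell whether cultures were handled together. With the replicate number as a block the LogFC of SSU1 was -0.02 and that of FZF1 0.14. PDR8 lost its call under both blocks (-0.47), with slide position (-0.47), without wild type replicate 1 (-0.52) or 2 (-0.47) and without 59A PDR8-S288c replicate 1 (-0.50) or 2 (-0.51). GRR1 and NOG1 changed sign without wild type replicate 3, with -0.011 to 0.13 and -0.22 to 0.033 without single arrays. The cause of these changes was not tested. FZF1 lies 1.16 to 1.40 log2 units above background, so that its differences are close to the limit of the signal, and SSU1 has 2 wild type values.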
